A study of Mus musculus with 8 samples.

Results

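The genes described here are 8 genes of the podocyte, the epithelial cell that covers the capillaries of the glomerulus. They are Nphs1 and Kirrel, which encode receptors of the slit diaphragm, Cd2ap and Magi2, which encode adaptors under that junction, Synpo, which encodes an actin-associated protein of the foot processes, Podxl and Ptpro, which encode proteins of the apical membrane, and Wt1, which encodes a transcription factor. They were listed by name and found on the arrays through the RefSeq accession that the scanner files give for each probe. All 8 were measured, by 15 probes, and they stand among 16013 genes tested and 22911 genes named on the array. RNA came from whole kidneys of mouse embryos at day 14.5, either wild type or with a conditional knockout of Mdm4 made with a Hoxb7Cre transgene, and was hybridised to 8 arrays with a Cy3 and a Cy5 channel each. Each genotype had 4 RNAs, joined into 4 pairs of 1 wild-type and 1 mutant RNA, and each pair was hybridised on 2 arrays with exchanged dyes, so that n = 4 pairs throughout. The labels give no strain, no sex, no floxed or null allele by name and no number of embryos per RNA, and they do not say whether the wild-type kidneys carried the transgene. Hoxb7Cre acts in the ureteric bud and the collecting ducts that grow from it, whereas podocytes come from the nephron progenitors of the metanephric mesenchyme, so that the cells known for these 8 genes lie outside the lineage in which the transgene is active.

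Podocytes wrap the glomerular capillaries with interlocking foot processes, and the gap between neighbouring processes is bridged by the slit diaphragm. Nephrin and the Neph proteins form its extracellular strands, adaptors such as CD2AP tie them to the inside of the cell, and actin inside the foot processes keeps the shape of the cell. During kidney development Wt1 is first active in the nephron progenitors and becomes strong in the podocyte precursors of the S-shaped body, before nephrin, synaptopodin and podocalyxin appear in the maturing glomerulus. Several of the genes are also active elsewhere, such as Podxl in endothelium and Magi2 in neurons. Whole-kidney RNA was measured, and in it a smaller number of cells of a type and less RNA per cell cannot be told apart.

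Unless stated, a value is the log2 of mutant over wild-type intensity, and ± gives the standard error of the limma fit. Between 60.7% and 70.2% of spots per channel were well above background, 0 spots were saturated, and the median standard error over all genes tested was 0.07. Mdm4, the targeted gene, was at -0.03, -0.06, -0.28 and -0.35 in pairs 1 to 4 (limma adjusted p = 0.471). Its mean was -0.00062 with the mutant RNA in Cy5 and -0.36 with it in Cy3. The labels do not place its probe relative to the deleted part. Cdkn1a, a gene activated by p53, was at 1.33, 0.44, 0.92 and 1.11. Y-linked transcripts were higher in the mutant RNA of pairs 1, 2 and 4 and lower in that of pair 3. Xist, which is transcribed from the inactive X chromosome of females, was at -2.71, -0.23, 2.48 and -2.80 in pairs 1 to 4, so that pair 2 hardly differed in it. It is not stated that the RNAs of a genotype came from separate litters, and the tests measure the spread between these pairs, part of which may be technical.

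The comparison asks how transcripts of the podocyte stood in kidneys labelled as Mdm4 knockouts in the ureteric lineage. The brightest probe of each of the 8 genes had a mean ratio above 0, from 0.0099 for Cd2ap to 0.44 for Ptpro, with a median of 0.27 over the 8 genes beside 0.01 over all genes tested. A mean above 0 was found for 8629 of the 16013 genes tested. Nphs1, Synpo, Podxl, Ptpro and Wt1 were higher in the mutant in each of the 4 pairs, which is 5 of 8 genes, where 12.1% of all genes were higher in every pair. None of the 8 was lower in every pair, where 7.84% of all genes were. Nphs1 and Synpo were higher on all 8 arrays, where 3.35% of all genes were. No gene of the 8 passed the threshold of an adjusted p of 0.05. The limma fit called 0 of the 16013 genes (0%), and the smallest adjusted p over all of them was 0.0750. At an unadjusted p under 0.05 stood Nphs1, Synpo, Podxl and Ptpro, 4 of the 8 genes and all higher, beside 7.01% of all genes higher and 3.6% lower. That split depends on the scaling: of the 16013 genes 1123 were higher and 576 lower here, against 3774 and 92 with median centring in place of loess, where the median of all genes was 0.14 and that of the 8 genes 0.36. For a single gene an exact sign-flip permutation test over 4 pairs cannot go below a two-sided p of 0.125.

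**Figure D1:**
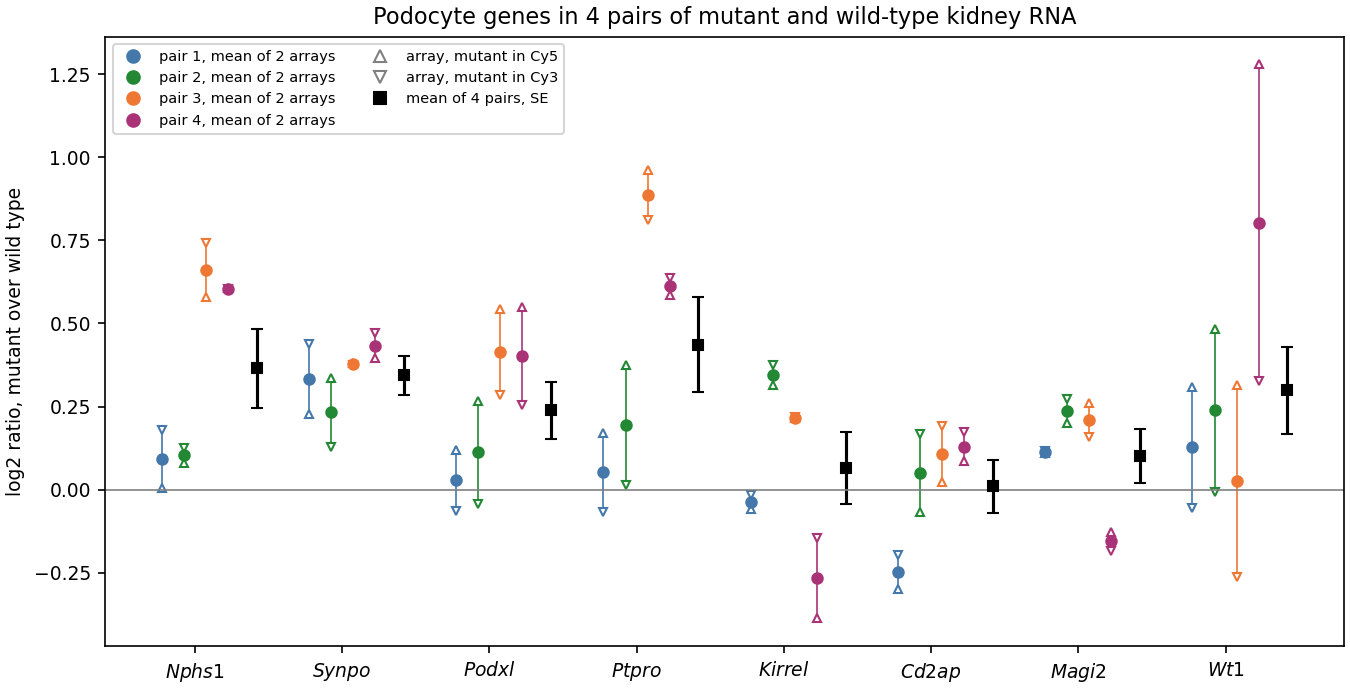
Log2 ratio of mutant over wild type (vertical axis) of the 8 genes. Filled circles are pairs, open triangles are the 2 arrays of a pair (pointing up with mutant RNA in Cy5, down with it in Cy3), and black squares are means of 4 pairs with their SE. Nphs1, Podxl and Ptpro sit well above 0 in pairs 3 and 4 and close to 0 in pair 1, Synpo is similar in all pairs, and the Wt1 arrays are split by dye.

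Nephrin, the product of Nphs1, is a cell adhesion protein of the immunoglobulin superfamily whose strands bridge the slit. On its brightest probe Nphs1 was at 0.09, 0.10, 0.66 and 0.60 in pairs 1 to 4. Pairs 3 and 4 lay far above pairs 1 and 2. The mean was 0.37 ± 0.12, or 1.29-fold (limma adjusted p = 0.425), and the arrays with mutant RNA in Cy5 (0.32) and in Cy3 (0.41) gave like values. Without pair 3 the mean was 0.27. The probe is dim, and an offset added before taking logs makes the ratio of such a probe smaller. On the scanner software's own ratio, which has no such offset but differs in other steps too, the mean was 0.80 (limma adjusted p = 0.476). A second Nphs1 probe, described below, was nearly as bright, with a mean log2 intensity of 7.58 beside 7.62. Its mean ratio was -0.04.

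Kirrel encodes Neph1, which binds nephrin across and along the slit. Its ratios were -0.04, 0.35, 0.22 and -0.27 in pairs 1 to 4. Pairs 2 and 3 were higher in the mutant and pairs 1 and 4 lower. The mean of 0.06 ± 0.11 (95% interval -0.20 to 0.33, limma adjusted p = 0.839) did not stand apart from the spread between pairs, and without pair 2 it was -0.03. In pair 4 Nphs1 and Kirrel stood on opposite sides of 0, with Kirrel at its lowest.

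CD2AP links nephrin to actin and to signalling inside the cell. Cd2ap was at -0.25, 0.05, 0.11 and 0.13 in pairs 1 to 4. Pair 1 alone was lower in the mutant. The mean was 0.0099 ± 0.08, with a 95% interval from -0.18 to 0.20 (limma adjusted p = 0.973).

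MAGI2 is a scaffold protein with several PDZ domains that holds nephrin in a complex at the slit diaphragm. Magi2 was at 0.11, 0.24, 0.21 and -0.16 in pairs 1 to 4. Pair 4 alone was lower in the mutant, the pair in which Kirrel was lowest too. The mean was 0.10 ± 0.08, with a 95% interval from -0.09 to 0.30 (limma adjusted p = 0.659). It was 0.06 without pair 2 and 0.19 without pair 4.

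Synaptopodin binds actin in the foot processes and is made late in podocyte maturation. Synpo was at 0.33, 0.23, 0.38 and 0.43 in pairs 1 to 4. Its spread between pairs was the smallest of the 8 genes, with an SD of 0.08. The mean was 0.34 ± 0.06, or 1.27-fold, and its adjusted p of 0.299 was the lowest of the 8 in limma's fit. With 1 pair left out the mean ran from 0.31 to 0.38, and both dye orientations gave like values, at 0.33 and 0.35.

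Podocalyxin is a heavily sialylated protein whose negative charge keeps foot processes apart. Podxl was at 0.03, 0.11, 0.41 and 0.40 in pairs 1 to 4, the same order of pairs as for Nphs1. The mean was 0.24 ± 0.09, or 1.18-fold (limma adjusted p = 0.442). With the mutant RNA labelled in Cy5 the mean was 0.37, and with it labelled in Cy3 it was 0.11, where pairs 1 and 2 gave -0.06 and -0.04.

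Ptpro encodes a receptor tyrosine phosphatase of the apical podocyte membrane, also known as GLEPP1. Its ratios were 0.05, 0.19, 0.89 and 0.61 in pairs 1 to 4. Pairs 3 and 4 again lay above pairs 1 and 2. The mean of 0.44 ± 0.14, or 1.35-fold, was the highest of the 8 genes in this fit (limma adjusted p = 0.425), and on the scanner software's ratio Ptpro was at 0.52, below Nphs1. Without pair 3 it was 0.29.

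Wt1 encodes a zinc finger protein needed for the formation of the kidney and for the upkeep of podocytes. It was at 0.13, 0.24, 0.03 and 0.80 in pairs 1 to 4, so that pair 4 stood apart. The mean was 0.30 ± 0.13 (limma adjusted p = 0.489), and without pair 4 it was 0.13. The arrays with mutant RNA in Cy5 were at 0.31, 0.48, 0.31 and 1.28. Those with mutant RNA in Cy3 were at -0.06, -0.0060, -0.26 and 0.33. The means of these orientations were 0.60 and 0.00051, and the dye coefficient of a fit over all 8 arrays passed the threshold (limma adjusted p = 0.00687). Of the 8 genes Podxl and Wt1 had a dye coefficient past the threshold, where 30.9% of all genes had one. The mean over both orientations balances a dye effect, but for Wt1 the sign of a single array went with its orientation in pairs 1 to 3.

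The levels of the single RNAs were then compared, as log2 intensities after the arrays had been brought to a common scale. For Nphs1 the wild-type RNAs of pairs 1 to 4 were at 8.05, 7.60, 6.99 and 7.11 and the mutant RNAs at 8.14, 7.71, 7.66 and 7.71. The mutant RNAs of pairs 2 to 4 lay close together, while the wild-type RNAs of pairs 3 and 4 lay far below the other two. For Ptpro the wild-type RNAs were at 10.38, 9.92, 9.15 and 9.39 and the mutant RNAs at 10.43, 10.12, 10.03 and 10.01. Here too the wild-type RNAs of pairs 3 and 4 were the lowest. For Podxl the wild-type RNAs were at 9.44, 9.22, 8.82 and 8.89 and the mutant RNAs at 9.47, 9.33, 9.23 and 9.29. For Synpo they were at 9.61, 9.27, 9.09 and 9.07 against 9.95, 9.50, 9.47 and 9.50. In all 4 of these genes the wild-type RNA of pair 1 was the highest of its genotype, followed by that of pair 2 and then by those of pairs 3 and 4, an order found in 25% of all genes tested. The highest and the lowest RNA differed by 1.05 among the wild-type and 0.48 among the mutant RNAs for Nphs1, and by 1.23 and 0.42 for Ptpro.

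The other 4 genes did not share that order. Cd2ap missed it narrowly, with the wild-type RNA of pair 4 at 12.995 and that of pair 2 at 12.994. For Wt1 the wild-type RNAs were at 14.90, 14.86, 15.03 and 14.99 and the mutant RNAs at 15.03, 15.10, 15.06 and 15.79, so that the mutant RNA of pair 4 alone was far above the rest. For Kirrel the wild-type RNAs were at 12.52, 11.99, 12.10 and 12.42 and the mutant RNAs at 12.48, 12.34, 12.32 and 12.16. For Cd2ap they were at 13.15, 12.99, 12.84 and 13.00 against 12.90, 13.04, 12.95 and 13.12. For Magi2 the mutant RNAs were at 10.12, 10.09, 10.16 and 9.61, and the wild-type RNAs of pairs 2 to 4 at 9.85, 9.95 and 9.76, with that of pair 1 above these. In 0 of the 8 genes did all mutant RNAs lie above all wild-type RNAs, where 3.3% of all genes showed this. The range over the wild-type RNAs was wider than that over the mutant RNAs in 6 of the 8 genes, all but Magi2 and Wt1, and in 46.5% of all genes.

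**Figure D2:**
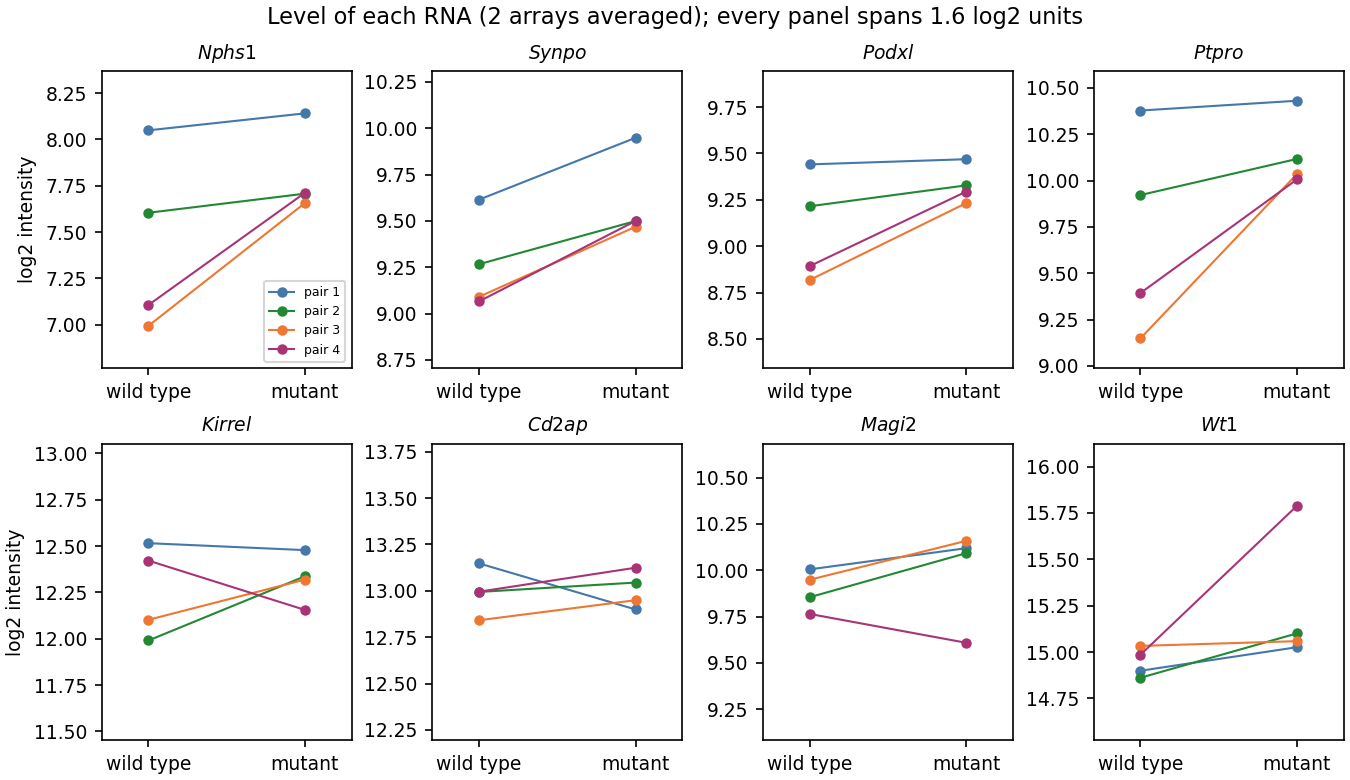
Log2 intensity of the 4 wild-type and the 4 mutant RNAs for each gene, with a line joining the RNAs of a pair and the 2 arrays of a pair averaged. Every panel spans the same range. Wild-type RNAs of Nphs1, Podxl, Ptpro and Synpo fan out from pair 1 to pairs 3 and 4, and the mutant RNA of pair 4 stands apart for Wt1.

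A probe was kept where 6 or more of the 8 channels of wild-type or of mutant RNA were well above background, which held for 14 of the 15 probes. Podxl, Ptpro and Wt1 had a single probe each. For the genes with several probes the ratio depended on the probe. Synpo had its ratio of 0.34 on probe A_51_P123676, made against transcript NM_177340. Its other probes, A_55_P2076787 and A_66_P113616, made against NM_001109975, were at 0.0037 and -0.02, and the pair values of the former ran from -0.05 to 0.11. Synpo is thus higher in every pair only on the probe for NM_177340. For Nphs1 the second probe, A_55_P1996479, was at -0.11, -0.14, 0.50 and -0.41 in pairs 1 to 4, with a mean of -0.04. It was well above background in 6 of 8 mutant channels and in 8 of 8 wild-type channels. Its mean log2 intensity was 7.58, beside 7.62 for the first probe, so that the choice of the brightest probe rested on a small difference. Nphs1 is thus higher in every pair only on the first probe. In pair 3 the Nphs1 probes were at 0.66 and 0.50, and in pairs 1, 2 and 4 they had opposite signs.

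Cd2ap was measured by 3 probes with means of 0.0099, 0.05 and -0.12, and the third, A_66_P111568, was lower in the mutant in each pair. That probe was at 0.13 with mutant RNA in Cy5 and at -0.37 with it in Cy3. The second Kirrel probe was at -0.02 with the same signs as the first in every pair. The second Magi2 probe was well above background in 1 of 8 wild-type and 3 of 8 mutant channels and was not kept. With the median of the kept probes in place of the brightest probe, Nphs1 was at 0.16, Synpo at 0.06 and the median over the 8 genes at 0.13, and 3 of the 8 genes were higher in every pair. Whether the probes of a gene detect different transcripts was not tested.

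**Figure D3:**
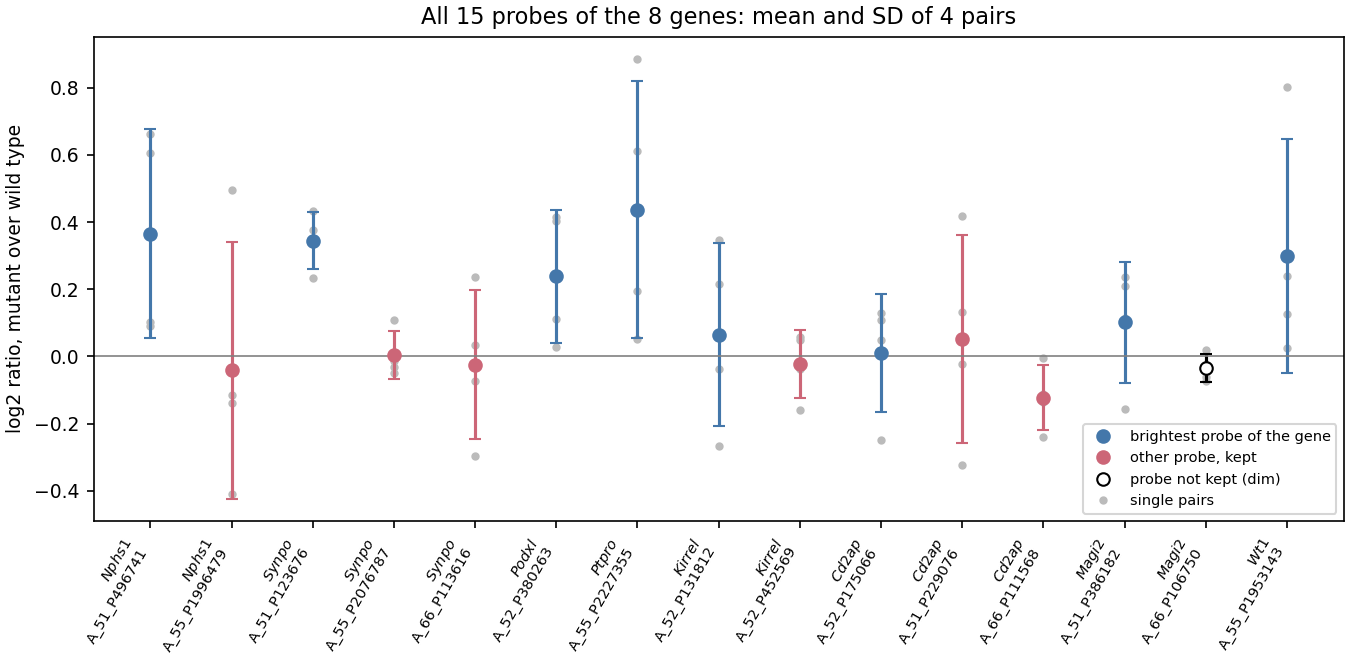
Log2 ratio of mutant over wild type for each of the 15 probes of the 8 genes, as the mean and SD of 4 pairs, with single pairs in grey. The brightest probe of a gene is blue, other kept probes are red, and the open circle is the dim Magi2 probe that was not kept. The red probes of Nphs1 and Synpo lie near 0 while the blue ones lie at 0.37 and 0.34.

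The sequence before the transcription start was examined for Nphs1 and Ptpro, whose ratios had a like pattern across pairs, with Cd2ap, whose ratio was near 0, beside them. From the RefSeq table of GRCm38.p6 promoters 5 of the 8 genes were used, Nphs1, Ptpro, Kirrel, Cd2ap and Magi2, with 6 start sites. The table held no window for Podxl and Wt1, and Synpo was left out because its chromosome was not used. In the 250 bases before each start, both strands were searched for GTGGGAG, a part of the WT1 consensus, GCGGGGG, a word bound by EGR1 and WT1 zinc fingers, GTAAACA of forkhead factors, TAATTA of LMX1B and other homeodomains and the E-box CAGCTG. Capitals mark the matches, and the gene's own strand is shown. The windows lie at chr7:30459808-30460057 (plus strand) for Nphs1, chr6:137252049-137252298 (plus strand) for Ptpro and chr17:42876425-42876674 (minus strand) for Cd2ap.
Nphs1: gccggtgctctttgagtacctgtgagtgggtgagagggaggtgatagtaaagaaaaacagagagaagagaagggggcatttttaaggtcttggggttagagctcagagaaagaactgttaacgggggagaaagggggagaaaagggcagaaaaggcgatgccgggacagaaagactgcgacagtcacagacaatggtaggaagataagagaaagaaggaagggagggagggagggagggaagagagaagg
Ptpro: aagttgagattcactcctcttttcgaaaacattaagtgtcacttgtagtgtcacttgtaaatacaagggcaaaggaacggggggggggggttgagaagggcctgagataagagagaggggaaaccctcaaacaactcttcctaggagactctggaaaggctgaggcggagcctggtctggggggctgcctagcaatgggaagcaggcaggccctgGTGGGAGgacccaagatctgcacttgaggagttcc
Cd2ap: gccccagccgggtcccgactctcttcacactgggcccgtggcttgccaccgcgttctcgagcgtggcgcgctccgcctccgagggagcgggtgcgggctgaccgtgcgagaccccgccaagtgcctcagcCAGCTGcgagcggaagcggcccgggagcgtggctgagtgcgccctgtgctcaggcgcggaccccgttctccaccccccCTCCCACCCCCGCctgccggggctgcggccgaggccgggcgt

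The window of Ptpro held GTGGGAG once, starting 35 bases before the start site, and that of Cd2ap held it once on the other strand, 42 bases before the start, overlapping a match to GCGGGGG. Of all 32851 promoter windows given by RefSeq, 8.25% held GTGGGAG and 9.63% held GCGGGGG. The window of Nphs1 and that of Kirrel held none of the 5 words. CAGCTG stood in the windows of Cd2ap and of 1 Magi2 start (13% of all windows), and TAATTA in that of the other Magi2 start (4.84%). GTAAACA, found in 3.17% of all windows, was in none of those 6. A word match describes the sequence and was not tied to the ratios.

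Other genes of the podocyte were taken from 7 lists, of which 59 of 61 genes were measured. Their median ratio was 0.05, beside 0.27 for the 8 genes and 0.01 for all genes tested. Of these genes 39 were higher and 20 lower in the mutant, beside 8629 higher and 7384 lower of all 16013 genes. In every pair 11 were higher and 4 lower, beside 12.1% and 7.84% of all genes. At an unadjusted p under 0.05 there were 9 higher and 1 lower of the 59, beside 7.01% and 3.6% of all genes. At the adjusted threshold there were 0 in either direction by limma. Listed genes, higher or lower, can be active in other cells too, and the part of those cells was not tested.

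Among junction genes 5 of 6 measured genes were higher, with a median of 0.10. Crb2, a polarity gene, was at 0.16 ± 0.07, Kirrel3, a relative of Kirrel, at 0.13 ± 0.06, and Tjp1, which encodes the junction protein ZO-1, at 0.25 ± 0.14. Of 9 adaptor and signalling genes 8 had means above 0, with a median of 0.07, among them the phospholipase gene Plce1 at 0.21 ± 0.08 and Nck1, an adaptor for phosphorylated nephrin, at 0.14 ± 0.07.

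Of 11 genes of the actin cytoskeleton 4 were higher, with a median of -0.0065. Ddn, which encodes dendrin of the slit diaphragm, was at 0.12, 0.10, 0.99 and 0.49 in pairs 1 to 4, and Clic5, which encodes a foot process protein, at 0.03, -0.06, 0.78 and 0.63. Both had their highest ratios in pairs 3 and 4, like Nphs1 and Ptpro. Actn4, which encodes an actin cross-linker found in many cells, was at -0.03 ± 0.07, and Arhgdia, a regulator of small GTPases, at -0.14 ± 0.06. Of 7 genes around podocalyxin 3 were higher, and Slc9a3r1, whose product NHERF1 is also abundant in tubules, was lower in every pair at -0.21 ± 0.06. Ezr, which encodes ezrin, was at -0.13 ± 0.07.

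Among 7 transcription factor genes of the podocyte 5 were higher, with a median of 0.11. Foxc2 was at 0.11 ± 0.06 and Foxd2 at -0.28 ± 0.14. Of 9 genes of the basement membrane and of secreted proteins 4 were higher, among them Col4a5, a collagen IV chain, at 0.29 ± 0.09 and Agrn, a heparan sulphate proteoglycan gene, at 0.19 ± 0.08, while Npnt, which encodes nephronectin and is known as a product of the ureteric bud too, was at -0.36 ± 0.16. Of 10 further markers all were higher on average and 5 in every pair, with a median of 0.20. Of all 16013 genes tested 8629 were higher on average and 12.1% in every pair. Among the 10 were the peptidase gene Mme at 0.45 ± 0.14, Npr3 at 0.29 ± 0.09, Sulf1 at 0.29 ± 0.08 and the cell cycle inhibitor gene Cdkn1c at 0.17 ± 0.06. Mme, Npr3 and Sulf1 were closest to 0 in pair 3, at 0.05, 0.04 and 0.03, where Nphs1 and Ptpro were highest.

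**Figure D4:**
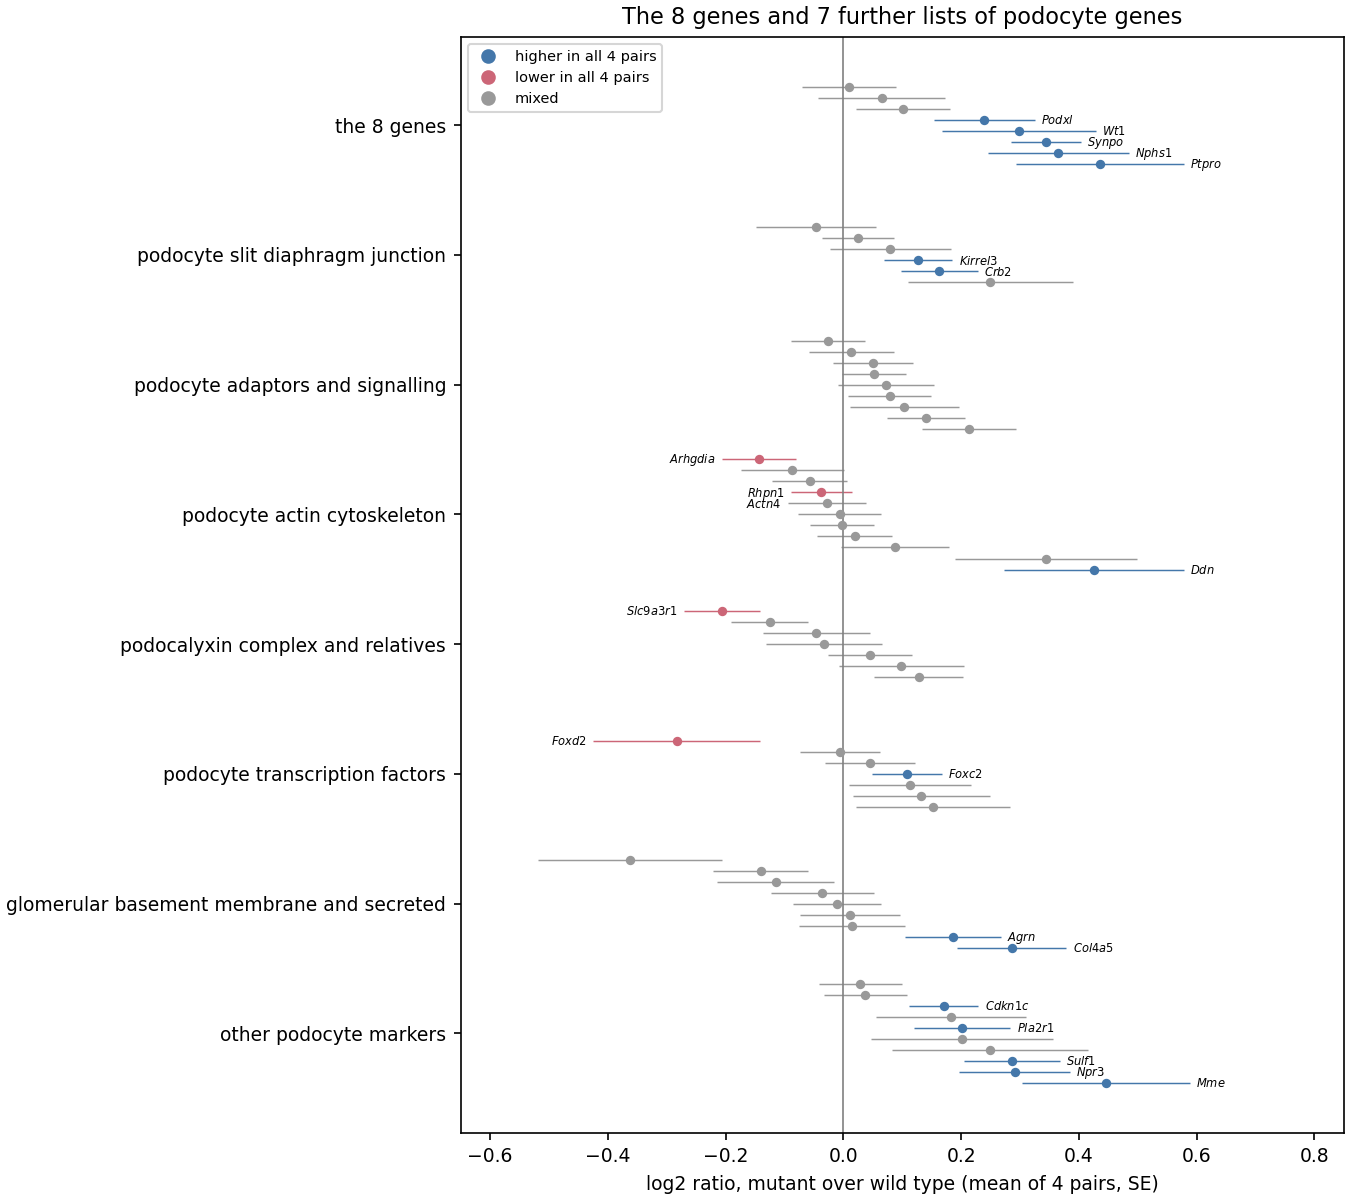
Mean log2 ratio of mutant over wild type (horizontal axis, SE of the fit) of the 8 genes and of the genes in 7 further podocyte lists. Blue marks genes higher in all 4 pairs, red genes lower in all 4 pairs, and grey the rest. Of the 8 genes 5 are blue, and of the 59 others 11 are.

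Levels were also taken for Ddn, Clic5, Plce1 and the tubule gene Lrp2, chosen after their values were seen. Ddn, Clic5 and Plce1 had the order of wild-type RNAs seen for Nphs1, an order found in 25% of all genes tested. Lrp2, with its wild-type RNAs at 10.20, 10.20, 9.79 and 10.39, did not have it. The ratios of Ddn, Clic5 and Plce1, and of Lrp2 too, were highest in pairs 3 and 4. A low wild-type RNA raises the ratio of its pair, so that in genes chosen this way the match is no independent test. Levels were not taken for Mme, Npr3 and Sulf1, whose ratios were lowest in pair 3. For Ddn the wild-type RNAs of pairs 1 to 4 were at 8.30, 8.03, 7.11 and 7.39 and the mutant RNAs at 8.43, 8.13, 8.09 and 7.89. For Clic5 they were at 9.45, 9.42, 8.52 and 8.92 against 9.48, 9.36, 9.30 and 9.55. In both genes the wild-type RNAs of pairs 3 and 4 were the lowest of the 8 RNAs.

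Markers of other kidney cells are given beside these values, and their part in the ratios of the 8 genes was not tested. The medians of the 8 genes in pairs 1 to 4 were 0.07, 0.21, 0.30 and 0.42. Those of 8 proximal tubule genes, which like podocytes arise from the nephron progenitors, were -0.0014, -0.13, 0.34 and 0.60. The highest medians of both lists were in pairs 3 and 4. In 8 of 8 listed leukocyte genes and 10 of 10 listed stroma genes the mean was above 0, with medians of 0.20 and 0.28, and the stroma medians were 0.39, 0.29, 0.07 and 0.49. Over all 16013 genes tested 8629 had a mean above 0 and 7384 below. The 11 ureteric genes were all below 0 on average, with a median of -0.31 and -0.64, -0.28, 0.06 and -0.51 by pair. Pair 3, in which Ptpro and Nphs1 were highest, thus was the pair in which the stroma and the ureteric lists were closest to 0.

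The medians of the other lists of kidney cells lay closer to 0. Of 12 nephron progenitor genes, cells in which Wt1 is active too, 6 were higher and 6 lower, with a median of 0.02 and with 0.01 in pair 4, where Wt1 was highest. Of 15 endothelial genes, cells in which Podxl is active, 7 were higher and the median was -0.00083, and in pairs 3 and 4, where Podxl was highest, the medians were 0.07 and -0.04. Of 10 early nephron genes 7 were lower, with a median of -0.08 and with -0.21, -0.03, 0.07 and -0.19 by pair. At an unadjusted p under 0.05 by limma 3 of these were lower and 1 higher, beside 3.6% and 7.01% of all genes. Wnt4 at -0.34 ± 0.08 and Lhx1 at -0.26 ± 0.08 were lower in every pair, and Cdh6 at 0.38 ± 0.13 was higher in every pair. Of 9 genes of mesangium and pericytes 4 were higher, with a median of -0.03. Of 7 red blood cell genes 3 were higher, with a median of -0.0096.

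**Figure D5:**
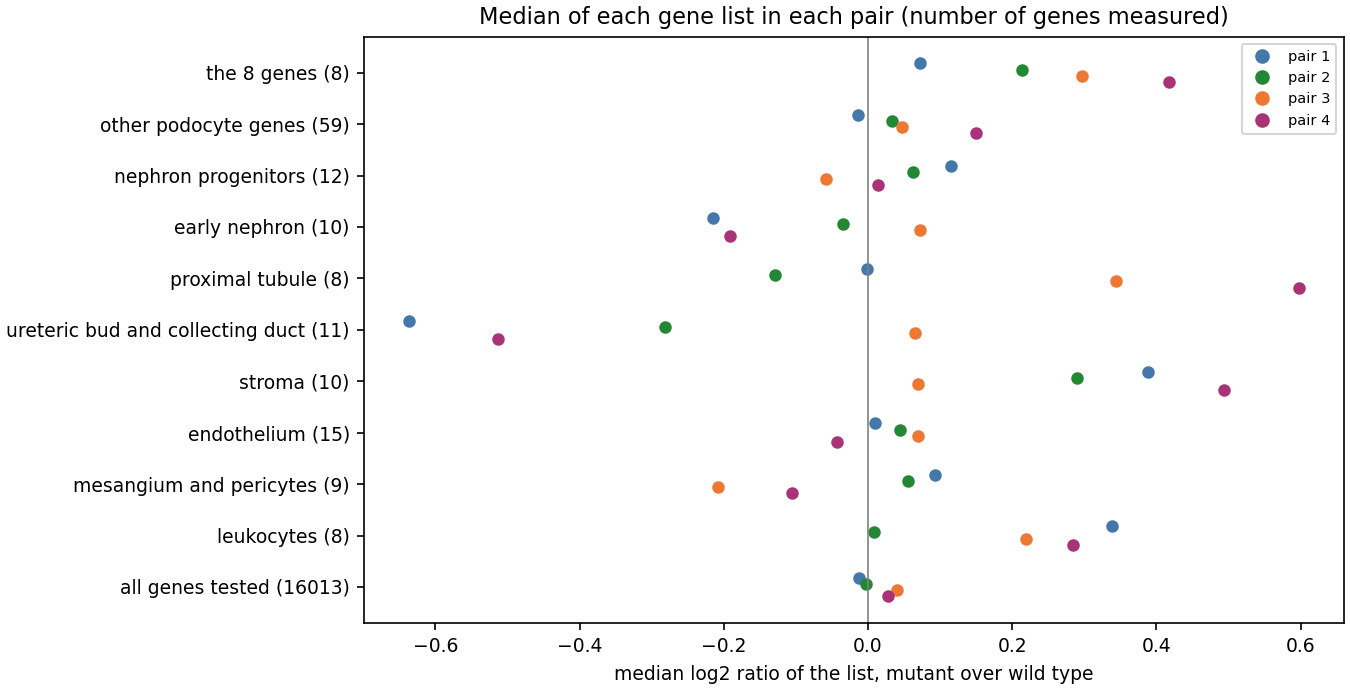
Median log2 ratio of mutant over wild type (horizontal axis) of each gene list in pairs 1 to 4, with the number of genes measured in brackets. The 8 genes run from 0.07 in pair 1 to 0.42 in pair 4, the proximal tubule list is high in pairs 3 and 4, and the ureteric list is low in pairs 1, 2 and 4.

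The sex-linked difference of a pair, taken as the mean of Eif2s3y, Kdm5d and Ddx3y, was 1.53 in pair 2 and -1.72 in pair 3, and pairs 1 and 4 lay far above both. With it as a covariate Wt1 was at 0.16, Ptpro at 0.61, Nphs1 at 0.46 and Synpo at 0.34 (limma adjusted p from 0.662 to 0.846). In the same fit Podxl was at 0.30, Kirrel at 0.18, Magi2 at 0.17 and Cd2ap at 0.06 (limma adjusted p from 0.692 to 0.918). The part of sex in these ratios was not tested.

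By distance over the 4 pair values, the genes closest to the median of the 8 genes were Fzd1, which encodes a Wnt receptor, Csgalnact1, Cmpk1, Gucy1b1 and Syde2, at distances from 0.06 to 0.08. Among the 8 genes themselves Podxl lay closest to that median, at 0.16, and Kirrel farthest, at 0.71. Fzd1 was at 0.03, 0.19, 0.26 and 0.43. With 4 values per gene and 16013 genes, close matches are many.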

How the data were processed

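The scanner files hold median spot and local background intensities in both dyes, as deposited, made with Agilent Feature Extraction 10.7.3.1 per the file headers (8.5.1.1 per the submitters' processing notes). They also hold the software's log10 ratio of Cy5 over Cy3, and the authors' series table holds the same log10 ratio, deposited with rounding and not turned for the dye swap. From the intensities, limma 3.58.1 in R 4.3.3 corrected background (normexp, offset 50) and normalised each array by loess, with control and outlier spots at weight 0 and then left out. Median signals took the place of a mean. Ratios were turned to mutant over wild type, the 2 arrays of a pair were averaged, and probes well above background in at least 6 of 8 channels of a genotype were kept (34592 of 56605). Accessions gave 32994 probes a name (58.3%). Each of 16013 genes was its brightest kept probe, tested against 0 with lmFit and eBayes, two-sided, with Benjamini-Hochberg adjustment over all genes and a threshold of 0.05. No array value was missing for the 8 genes. Levels per RNA come from the same arrays scaled with Aquantile, and these levels are not compared between different probes. All arrays lay on 1 slide, where dye orientation went with position. The pairing comes from the labels, which give a pair number to the arrays that share 2 RNAs.

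The 8 genes, the gene lists, the tests and the rule for named genes were chosen with earlier results of these data known. The rule named the 8 genes, Mdm4, Cdkn1a and Actn4, up to 4 genes of each podocyte list and up to 2 of each other list with the smallest p, and the 5 genes with the closest pair values (Euclidean distance). Some podocyte genes are not reported here and were left out of the lists. Lists not described in the report are described with the other observations. The fit and the motif search were checked on simulated data. Alternatives covered centring, background, filter, probe choice, dye orientation, the deposited ratios, the replicate block, the sex-linked covariate and each left-out pair.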

Additional observations from a re-analysis of the deposited data

Results flagged for a closer look

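Within the 4 RNAs of a genotype, 1 RNA stood apart from the others in 4 of 24 sets of values examined (ratios, wild-type levels and mutant levels of the 8 genes). A set was marked when the gap of its outermost value to the nearest other, divided by the whole range, exceeded Dixon's critical value for 4 samples, which chance alone gives in about 1 in 20 sets. The share of such sets over all genes tested was not computed, and the sets are not independent, since they come from the same RNAs. All 4 were mutant levels. For Nphs1 and Synpo the mutant RNA of pair 1 was the highest, with gap ratios of 0.885 and 0.935, and the wild-type RNA of pair 1 was the highest of its genotype too. For Wt1 the mutant RNA of pair 4 was the highest (0.902), and for Magi2 the mutant RNA of pair 4 was the lowest (0.879).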

How the results depend on the processing

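In all of 17 alternatives Nphs1, Synpo, Podxl, Ptpro, Magi2 and Wt1 kept their direction, whereas Cd2ap, whose ratio is near 0, did so in 11 and Kirrel in 16. Some of these could not change a direction. The changed filters on dim probes and the fits of 8 arrays returned the same mean ratios. The deposited ratios repeat those of the scanner software. Podxl, Ptpro, Magi2 and Wt1 have 1 kept probe each, so that the median of their probes equals it. Wt1 was at 0.00051 on arrays with mutant RNA in Cy3. Cd2ap was at -0.0033 when the pairs were centred on the genes tested, at -0.019 with the median of a gene's probes and at -0.064 on arrays with mutant RNA in Cy5. With 1 pair left out Cd2ap ran from -0.030 to 0.10 and Kirrel from -0.029 to 0.18, and limma called 0 genes in each case. The median of the 8 genes was 0.11 on arrays with mutant RNA in Cy3 alone, and the cause was not tested. Limma called 42 genes with median centring, which moved the median of all genes to 0.14, 39 in a fit of 8 arrays with the pair as a random replicate block, and 395 with all 8 arrays taken as separate samples, which counts each RNA more than once. None of the 8 genes was among the 42 or the 39. Synpo passed in the last of these fits (0.34, limma adjusted p = 0.0118). With quantile scaling of the levels, 1 gene of the 8, Wt1, had all mutant RNAs above all wild-type RNAs. Having 4 pairs limits the precision. The ratio of the dim Nphs1 probe was 0.51 without background subtraction and 0.80 on the scanner software's ratio. No alternative changed the offset alone.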

Other observations

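Lists of tissues that lie next to the kidney, or that use some of the 8 genes, are given as values only. Wt1 is active in mesothelium and gonad, and Magi2 in neurons. Of 5 mesothelium genes 3 were higher in the mutant, with a median of 0.03, and Msln and Upk3b, the ones with the smallest p, were at -0.11 ± 0.08 and 0.11 ± 0.09. Of 6 gonad genes 4 were measured, of which 2 were higher, with Foxl2 at -0.26 ± 0.12 and Ddx4 at 0.19 ± 0.12. Of 6 neuron genes 4 were higher, with a median of 0.06. Stmn2 was at 1.14, -0.22, 0.09 and 1.43 in pairs 1 to 4 and Syt1 at 0.64, 0.72, 0.03 and 0.59, while Magi2 was at its lowest in pair 4.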
